A study of Mus musculus with 4 samples.

Results

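The cells described here are non-cycling, differentiating muscle cells that arose in short-term cultures of mouse muscle stem cells from 2 muscles. They were chosen cell by cell from measured RNA: among barcodes with 5000 or more UMIs (molecules counted once each by a molecular tag) and at most 10% mitochondrially encoded (mt-) UMIs, those with 10 or more UMIs per 10000 from Myog, Mymk and Mymx together and 1 or less per 10000 from Mki67, Top2a, Cdk1 and Birc5 together were kept. This gave 408 cells from the extraocular muscles (EOM), the small muscles that move the eye, and 380 cells from the TA (tibialis anterior), which lies along the shin. They are 788 of the 23170 barcodes in the 4 libraries of the series. The genes of the rule are high or low in these cells by construction, and their own values are given only as a description. Myog, Mymk and Mymx are also members of the lists of myogenic factors and fusion genes below. They enter the medians of those lists.

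All cells came from Tg:Pax7-nGFP mice aged 2 to 4 months, which carry a green fluorescent protein in the nuclei of cells with an active Pax7 promoter, and were sorted on that fluorescence. The sorted stem cells were grown for 4 days on Matrigel, a basement membrane gel, in growth medium at 3% oxygen, and polyadenylated RNA was then counted on the 10x Genomics droplet platform. There was 1 library for activated EOM cells and 1 for activated TA cells, with 7597 and 6086 barcodes and 144188957 and 118537060 UMIs. Libraries of quiescent EOM and TA cells, taken from the same strain directly after sorting and not cultured, are used below only for comparison. How many animals went into a library, and their sex, is not stated. With 1 library per muscle there was no replicate and no test, every interval is a 95% interval that covers counting error only, and a difference between the muscles cannot be told apart from a difference between the cultures or libraries.

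A muscle stem cell that is activated first divides as a myoblast. It then switches on the transcription factor myogenin (Myog), leaves the cell cycle for good and becomes a myocyte that can fuse with others into a multinucleated fibre. Fusion is carried out by the membrane proteins myomaker (Mymk) and myomixer (Mymx). At the same time the cell begins to build the sarcomere, the contractile unit of actin and myosin filaments, and in embryonic muscle the heart and smooth muscle forms of alpha actin are made before the skeletal form takes over. Extraocular muscles arise in the head and leg muscles from the somites of the trunk, under different sets of positional regulators.

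The rule took 6.98% of EOM cells past the UMI and mt- limits (408 of 5844, exact binomial interval 6.34 to 7.67%) and 8.58% of TA cells (380 of 4428, 7.77 to 9.45%). Cycling genes were the narrow criterion: 2416 EOM and 2173 TA cells met the Myog, Mymk and Mymx criterion, while 433 and 400 met the cycling criterion. Of the kept cells, 37 in EOM and 28 in TA lay just inside the cycling limit (0.9 to 1 per 10000), and 41 and 30 cells lay just outside it (over 1 to 1.1). On the other criterion few cells lay near the limit: 1 EOM and 3 TA cells were just inside it (10 to 15 UMIs per 10000 of the 3 differentiation genes), and among cells within the cycling limit none in EOM and 3 in TA were just outside it (5 to 10). The lowest kept cells had 14.6 in EOM and 11.9 in TA, against medians of 63.4 and 56.5. The kept cells held 8762698 UMIs in EOM and 8986955 in TA, with medians of 21672 and 23615 UMIs and 7.25% and 7.10% mt- UMIs per cell. A gene with no UMI was set to a floor of 3 counts over the cells of a library, which is 0.342 CPM in EOM and 0.334 CPM in TA; CPM is a gene's UMIs after every population is scaled to the same total of UMIs.

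The label was checked against genes that the rule did not use, set beside undifferentiated cells as a description. Skeletal alpha actin (Acta1) was at 6522 CPM in the kept EOM cells against 86.1 CPM in the undifferentiated cells of the same library, which are those with 1 or less Myog, Mymk and Mymx UMIs per 10000 (2051 cells in EOM, 760 in TA). In TA the values were 10306 and 833 CPM. Cardiac alpha actin (Actc1) was at 5216 against 43.1 CPM in EOM and 1906 against 12.7 CPM in TA. The cell cycle inhibitor p21 (Cdkn1a) was at 1242 against 36.3 CPM and at 1140 against 83.3 CPM. Mitotic genes outside the rule summed to 315 CPM in kept EOM cells and 322 CPM in kept TA cells, against 3454 and 3400 CPM in undifferentiated cells. DNA replication genes were further from empty, at 495 CPM against 2901 CPM in EOM and 909 against 3455 CPM in TA, so that these cells are called non-cycling by the 4 genes of the rule and not free of S phase transcripts. No cycling limit was set for the undifferentiated cells, which come from the same cultures and day as the kept cells. Their median for the 4 cycling genes was 12.5 UMIs per 10000 in EOM and 11.9 in TA. In kept cells it was 0.429 and 0.445. Differences between kept and undifferentiated cells thus mix cycling with differentiation. The activated libraries shared 12 barcodes, none of them kept.

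Markers of other cell types were near absent, or were genes that muscle also makes. The summed level of 7 endothelial markers was 5.36 CPM in EOM and 3.78 CPM in TA, with Cdh5, Kdr and Emcn at 0 in both. Of 8 immune markers 2 in EOM and 1 in TA had any UMI, glial markers summed to 3.54 and 4.23 CPM with Sox10 at 0, adipocyte markers to 4.11 and 8.12 CPM with Adipoq at 0, and no red blood cell marker was detected. Fibroblast markers summed to 116 and 134 CPM, with Dcn, Dpt and Lum at 0 in both muscles and 4 of 8 detected in EOM and 5 of 8 in TA. Tendon markers summed to 231 CPM in EOM and 303 CPM in TA, with Tnmd and Fmod at 0 in both. Mural and smooth muscle markers summed to 5728 and 3711 CPM, nearly all of it Acta2 and desmin, with Myh11, which defines smooth muscle, at 0 in both. The part of such cells in the results was not tested.

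Of 4860 genes with at least 20 CPM in either muscle, 72 (1.48%) exceeded the TA level 2-fold or more in EOM cells and 58 (1.19%) fell short of it by as much, a size limit and not a test. Together 2.67% of genes were past the limit. The median difference over all genes tested was -0.03 on the log2(CPM + 1) scale, the scale of every median below. The split of the calls moved with the scaling: 55.4% of calls were higher in EOM here, 66.2% with TMM factors (86 higher, 44 lower) and 63.8% with median-of-ratios factors (81 and 46). The same EOM to TA comparison in undifferentiated cells put 142 of 5378 genes (2.64%) higher and 76 (1.41%) lower in EOM, or 4.05% in either direction. Of the 72 genes higher in differentiating EOM cells, 20 (27.8%) were also called higher in undifferentiated cells, where they made up 14.1% of that list, and 26 of the 72 could be tested there. Of the 58 lower genes, 17 (29.3%) were called lower in undifferentiated cells, or 22.4% of that list, with 43 tested. No gene was called in opposite directions in these 2 populations. In quiescent cells 2.95% of 5428 genes were higher and 2.75% lower in EOM (5.69% in all); 7 of the 72 genes were called higher there (29 tested) and 12 of the 58 were called lower (29 tested).

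**Figure D1:**
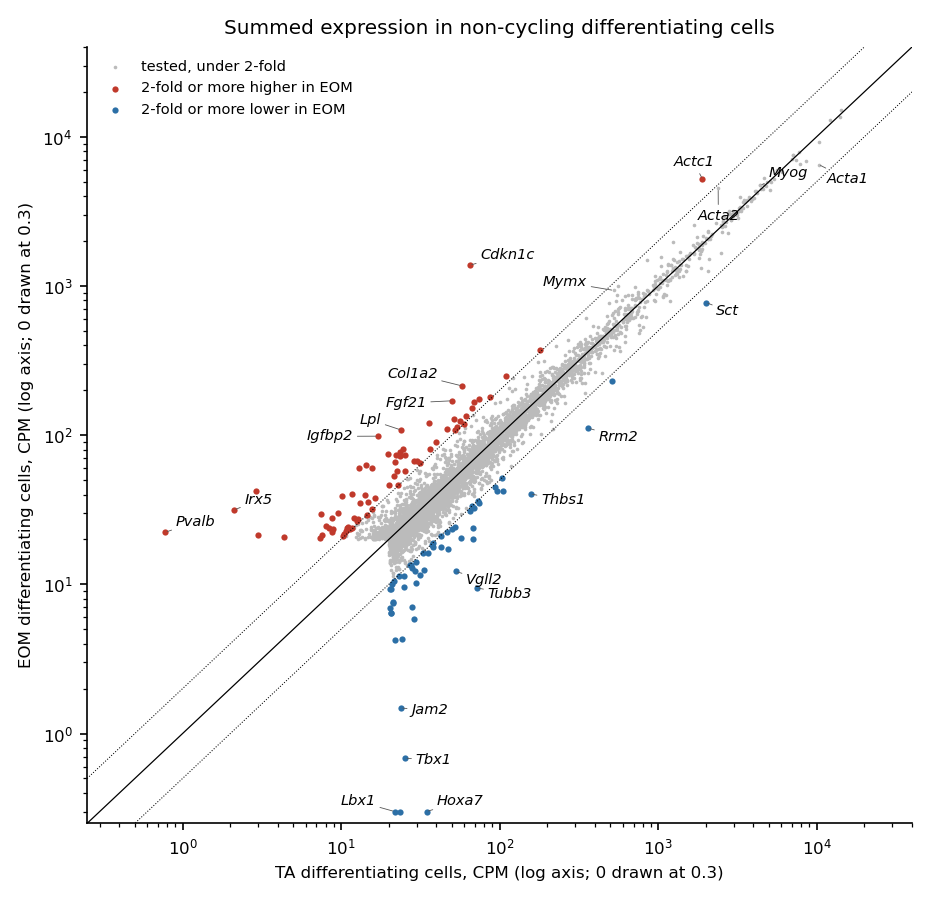
Expression summed over 408 EOM cells (vertical axis) against 380 TA cells (horizontal axis) in CPM on log axes, 1 point per gene with at least 20 CPM in either muscle; dotted lines mark 2-fold and red and blue points are the 72 genes higher and 58 lower in EOM. Most genes lie along the diagonal, with Cdkn1c and Pvalb far above it and Tbx1, Jam2 and Hoxa7 far below.

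Of 21 myogenic factors and cofactors tested, none was 2-fold higher in EOM and 2 were lower, beside 1.48% and 1.19% of all genes, with a median of 0.05. Myod1, the determination factor that precedes Myog, was at 1076 CPM in EOM and 1149 CPM in TA (0.937-fold, 0.911 to 0.964). In undifferentiated cells Myod1 was at 173 CPM in EOM and 693 CPM in TA (0.249-fold), so the muscles lay close together in the differentiating cells and apart in the others. The 2 lower genes were Vgll2, a cofactor of TEAD factors, at 12.2 CPM in EOM and 52.9 CPM in TA (0.231-fold, 0.185 to 0.286), and Id2, an inhibitor of MyoD-type factors, at 45.0 and 94.2 CPM (0.477-fold). The Id2 ratio was 0.512 in cells with no UMI of the cycling genes and 0.546 in cells matched on Myog, Mymk and Mymx.

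Under the limit, Mef2c, which acts with Myog on muscle promoters, was at 394 CPM in EOM and 225 CPM in TA (1.75-fold, 1.66 to 1.85), and Mef2a lay the other way at 389 and 566 CPM (0.687-fold). Myf6, the factor of late differentiation, was at 35.6 and 19.7 CPM (1.81-fold, and 2.24-fold after thinning). The 16 fusion and adhesion genes tested had a median of -0.00. Of them, Jam3 was higher and Jam2 lower in EOM, beside 1.48% and 1.19% of all genes. Jam2 passed the 20 CPM filter in TA alone, so its direction was set by the filter. Jam3 and Jam2 are related junctional adhesion molecules. Jam3 was at 374 CPM in EOM and 180 CPM in TA (2.08-fold, 1.96 to 2.21), and at 0.799-fold in undifferentiated cells. Jam2 was at 1.48 CPM in EOM and 23.8 CPM in TA (0.0623-fold, 0.0326 to 0.109), much as in undifferentiated cells (0.0544-fold). Jam3 was 1.86-fold higher in cells with no cycling UMI and 1.92-fold in cells matched on Myog, Mymk and Mymx, under the limit. Myog, Mymk and Mymx, genes of the rule, are among these lists and enter their medians. Their values are given as a description. Myog was at 4728 CPM in EOM and 4403 CPM in TA, Mymk at 647 and 653 CPM, and Mymx at 934 and 526 CPM.

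Within the 4 lists of sarcomere genes the largest ratio was that of an alpha actin. Cardiac Actc1 was 2.74-fold higher in EOM cells, skeletal Acta1 was at a 0.633-fold level there, and Acta2, the form of smooth muscle and of embryonic skeletal muscle, leaned to EOM. Acta1 lies on the minus strand at chr8:123891769-123894751 of mm10, Actc1 on the minus strand at chr2:114047282-114053548 and Acta2 on the minus strand at chr19:34241090-34255590. The bases before the start of Acta1 and Actc1, the genes that differ in opposite directions, are shown first (bases 250 to 21 before the RefSeq start, 5′ to 3′ on the coding strand, GRCm38.p6, at chr8:123894796-123895025 and chr2:114052896-114053125). GENCODE vM21 places the start of the 7-exon Actc1 transcript 12 bases before the RefSeq start, and that of a 2-exon transcript 673 bases before it, so that the Actc1 window lies within the gene's span, in the intron of the 2-exon transcript. Both Acta1 transcripts start after the RefSeq start, and the Acta1 window lies outside them. Capitals mark exact matches to the CArG box (CCWWWWWWGG, where W is A or T), a site that serum response factor can bind. Near matches were not searched.
Acta1: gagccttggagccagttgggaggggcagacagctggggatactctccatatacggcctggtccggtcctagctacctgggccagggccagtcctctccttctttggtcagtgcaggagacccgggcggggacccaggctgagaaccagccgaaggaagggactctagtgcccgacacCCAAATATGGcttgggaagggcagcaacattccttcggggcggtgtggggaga
Actc1: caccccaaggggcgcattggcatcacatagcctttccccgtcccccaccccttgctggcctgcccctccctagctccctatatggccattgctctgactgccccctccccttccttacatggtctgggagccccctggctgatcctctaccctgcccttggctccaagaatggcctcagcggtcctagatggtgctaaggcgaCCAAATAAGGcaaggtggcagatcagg
Each window held 1 CArG box on a search of both strands, beginning 73 bases before the RefSeq start of Acta1 and 47 bases before that of Actc1, and 1.41% of 32851 RefSeq windows of the same 230 bases held one. E-boxes (CANNTG, both strands, with overlaps allowed), the letters bound by MyoD-type factors, occurred at 238 and 221 bases before the Acta1 start and at no place in the Actc1 window, and 63.5% of windows held at least 1. A match of letters is a description and says nothing of binding in these cells.

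Summed over cells, Acta1 was at 6522 CPM in EOM and 10306 CPM in TA, with an interval of 0.626 to 0.639 for its ratio. Actc1 was at 5216 CPM in EOM and 1906 CPM in TA, with an interval of 2.69 to 2.79 for its ratio. Acta2 was at 4511 and 2394 CPM, 1.88-fold (1.85 to 1.92) and under the limit. The sum of the 3 genes was alike at 16249 CPM in EOM and 14606 CPM in TA, so the make-up differed more than the total. Acta1 was 40.1% of the summed actin UMIs in EOM and 70.6% in TA, Actc1 32.1% and 13.0%, and Acta2 27.8% and 16.4%. The non-muscle actins lay lower in EOM, Actb at 0.666-fold and Actg1 at 0.610-fold. The coding sequences of the alpha actins are near identical, and how reads were assigned between them is not given in the sources used here.

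The same held cell by cell, with wide overlap. The median EOM cell had 58.7 Acta1 UMIs per 10000 (interquartile range 33.7 to 88.7) and the median TA cell 98.8 (70.1 to 131). For Actc1 the medians were 49.2 in EOM (31.9 to 68.6) and 12.8 in TA (3.85 to 26.5). The 10th percentile of EOM cells for Actc1, 17.2 per 10000, lay above the TA median, and 38 of the 380 TA cells had no Actc1 UMI against 1 of the 408 EOM cells. Acta2 was detected in every kept cell, with medians of 44.4 in EOM and 23.0 in TA. Thinned to 5000 UMIs each, 98.5% of EOM cells (96.8 to 99.5%) and 83.9% of TA cells (79.9 to 87.5%) had an Actc1 UMI. Among undifferentiated cells the shares were 18.1% and 6.97%. Free RNA in these libraries was not measured, so its part in the UMIs of any of these cells is not known.

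**Figure D2:**
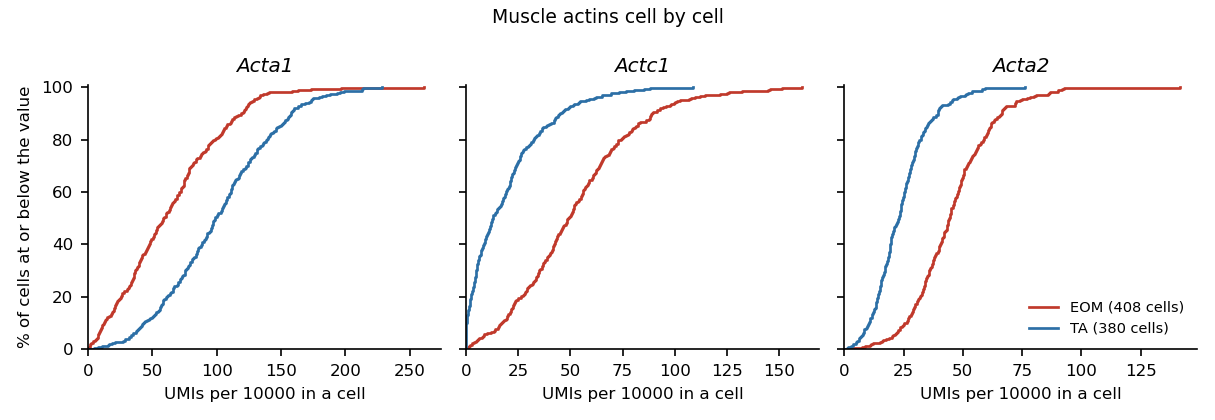
Share of cells (vertical axis, percent) at or below a given number of Acta1, Actc1 or Acta2 UMIs per 10000 in a cell (horizontal axis), for 408 EOM cells (red) and 380 TA cells (blue). The EOM curve lies left of the TA curve for Acta1, with medians of 58.7 and 98.8, and right of it for Actc1, with medians of 49.2 and 12.8.

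The muscles could hold cells at unlike distances along differentiation, so cells of both were pooled and split into 3 classes of equal size by the share of UMIs in sarcomere genes, at 472 and 649 per 10000. These genes include the actins and the myosins. The classes held 135, 130 and 143 EOM cells and 128, 132 and 120 TA cells from low to high. In EOM Actc1 made up 32.2, 32.0 and 32.1% of the muscle actin UMIs in the low, middle and high class, nearly a constant part, while Acta1 went from 30.1 to 38.6 to 44.5% and Acta2 from 37.7 to 29.4 to 23.4%. In TA Acta1 made up 73.5, 73.5 and 67.2% and Actc1 7.14, 10.3 and 17.3%. The Actc1 ratio of EOM to TA was thus 5.05 in the low class, 3.42 in the middle and 2.00 in the high class, and the Acta1 ratio was 0.459, 0.574 and 0.714. On the other axis, that of Myog, Mymk and Mymx, 25 EOM and 54 TA cells lay between 20 and 40 UMIs per 10000 and 379 and 318 cells at 40 or more, and the Actc1 ratio was 4.42 in the former and 2.52 in the latter. Between 10 and 20 there were 4 and 8 cells, too few to describe. Undifferentiated EOM cells had 90.2% of their muscle actin UMIs in Acta2 and 6.55% in Acta1, and undifferentiated TA cells 45.7% and 53.5%.

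**Figure D3:**
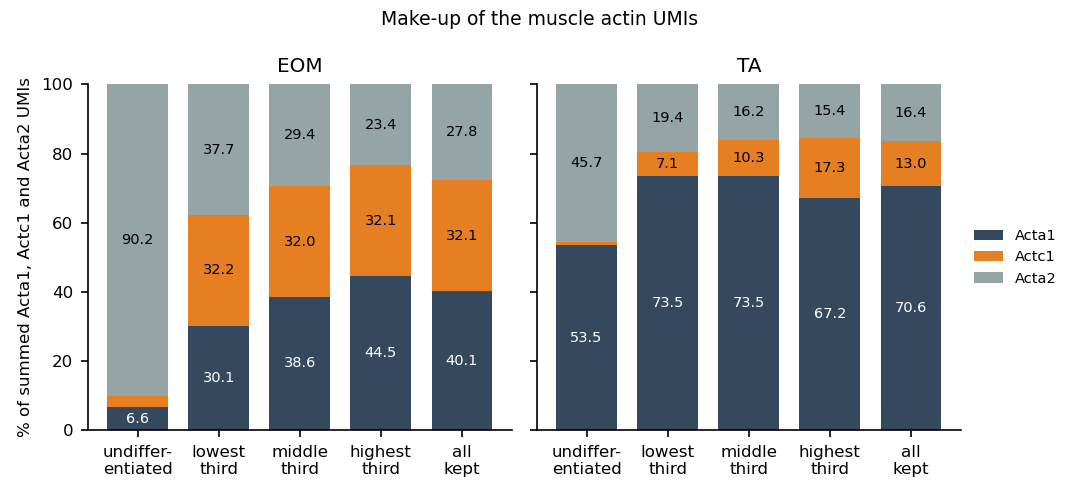
Share of the summed Acta1, Actc1 and Acta2 UMIs (vertical axis, percent) held by each gene in EOM (left) and TA (right), for undifferentiated cells, for kept cells of low, middle and high sarcomere share, and for all kept cells. Actc1 stays near 32% of EOM actin in all 3 classes and goes from 7.14% to 17.3% in TA.

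Summed sarcomere expression was close in the 2 muscles. The 4 lists of actins, myosins, thin filament proteins and Z-disc and M-band proteins summed to 59093 CPM in EOM and 59080 CPM in TA, and the median cell had 560 and 556 sarcomere UMIs per 10000. Of their 86 members 63 could be tested: 4 were higher in EOM and 1 was lower, beside 1.48% and 1.19% of all genes, and the median was 0.08, beside -0.03 over all genes. In undifferentiated cells 32 of the members were tested and 1 was higher and 12 lower in EOM, beside 2.64% and 1.41% of all genes, with a median of -0.52 over those 32. For the 63 genes tested in differentiating cells the undifferentiated median was -0.27.

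Beside Actc1, the higher members were Myh8, the myosin heavy chain of newborn muscle, at 128 CPM in EOM and 51.4 CPM in TA (2.49-fold, 2.23 to 2.78), Tcap, the telethonin that caps titin at the Z-disc, at 46.4 and 20.03 CPM (2.32-fold, 1.94 to 2.78), and Mylk4, a myosin light chain kinase, at 119 and 59.5 CPM (2.00-fold). The lower member was Hspb7, a small heat shock protein of muscle, at 23.4 and 49.96 CPM (0.468-fold, 0.395 to 0.554). Of these 5 genes, Actc1 and Myh8 were past the limit in each alternative but that of at most 5% mt- UMIs, which kept 8 EOM and 5 TA cells and is set aside here and below. Mylk4 was between 1.89-fold and 2.13-fold over the alternatives, Tcap was 1.88-fold and Hspb7 0.528-fold after thinning, and Tcap was 1.94-fold with the cycling limit at 3. Myh8 showed the same course as Actc1 over the sarcomere classes, with ratios of 9.82, 4.51 and 1.93 from low to high. Myh8 is itself among the genes that set the classes. It had no UMI in 187 of 408 EOM cells and 280 of 380 TA cells, so the class ratios rest on few TA cells. Myh3, the embryonic heavy chain and the more frequent of the tested heavy chains by UMIs, was at 1595 and 1528 CPM (1.04-fold). Myh1, of fast adult fibres, was at 136 CPM in EOM and 68.1 CPM in TA, just under the limit at 2.00-fold (1.81 to 2.20).

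The thin filament had no gene past the limit among 19 tested, beside 2.67% of all genes past it in either direction. Of the 19, 9 lay above 0 and 10 below, with a median of -0.03. Among the 19 were the tropomyosins Tpm1 at 1.53-fold and Tpm2 at 1.59-fold, the leiomodin Lmod3 at 1.74-fold and the tropomodulin Tmod1 at 1.86-fold. Cardiac troponin T (Tnnt2) was at 1319 CPM in EOM and 1856 CPM in TA (0.711-fold, 0.694 to 0.728), and the troponins C Tnnc1 and Tnnc2 were at 0.719-fold and 0.670-fold. Tnnt2 was far more unequal in undifferentiated cells, at 6.53 and 168 CPM (0.0388-fold). The giant proteins were near even, titin (Ttn) at 1.20-fold and nebulin (Neb) at 1.18-fold. Of 32 Z-disc and M-band genes 23 lay above 0 and 9 below, with alpha actinin 2 (Actn2) at 112 and 60.6 CPM (1.84-fold) and the mechanosensor Csrp3 at 0.628-fold.

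Genes that couple excitation to contraction leaned to EOM. Of 26 tested, 4 were higher and none was lower, beside 1.48% and 1.19% of all genes, and 22 of the 26 lay above 0, with a median of 0.32. Of the 26, 3 reached the 20 CPM filter in EOM alone and none in TA alone, and the list of 35 summed to 4300 CPM in EOM and 3812 CPM in TA. The 4 were triadin (Trdn), which anchors the calcium release complex, at 74.2 CPM in EOM and 25.5 CPM in TA (2.91-fold, 2.50 to 3.40), myoregulin (Mrln) at 76.6 and 23.6 CPM (3.25-fold, 2.78 to 3.81), sarcolipin (Sln) at 23.9 and 10.9 CPM (2.19-fold, 1.71 to 2.81) and the calcium buffer parvalbumin (Pvalb) at 22.4 and 0.779 CPM. Myoregulin and sarcolipin are small membrane proteins that slow the calcium pump. The Pvalb ratio of 28.7 rests on 7 TA UMIs and its counting interval runs from 13.7 to 72.4 (43.8 after thinning). Sln was 1.91-fold with the cycling limit at 3, and 1.97-fold in cells matched on Myog, Mymk and Mymx. The calcium pump Atp2a2 (0.917-fold), the acetylcholine receptor subunit Chrna1 (0.964-fold) and its clustering adaptor Dok7 (72.0 and 71.7 CPM) did not share the lean. Dok7 was at 0.213-fold in undifferentiated cells. The 17 genes of the dystrophin complex, costameres and caveolae had none past the limit, beside 2.67% of all genes past it in either direction. Of the 17, 16 lay above 0 with a median of 0.37. Syntrophin Sntb1 was at 1.86-fold and sarcospan (Sspn) at 1.58-fold, while integrin Itga7 was at 0.591-fold. The 14 muscle energy genes had none past the limit (1 with TMM factors), beside the same 2.67%, and a median of 0.16.

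The largest difference of all among genes with 50 CPM or more was Cdkn1c, an imprinted gene that encodes p57, an inhibitor of cyclin-dependent kinases (minus strand, chr7:143458339-143461050 of mm10). It was at 1380 CPM in EOM and 65.0 CPM in TA, 21.2-fold higher in EOM (19.5 to 23.1), and its ratio lay between 17.1 and 22.8 over the alternatives. In undifferentiated cells it was at 44.7 and 5.16 CPM (8.66-fold), and in quiescent cells at 136 and 69.8 CPM (1.95-fold). Both muscles thus had more Cdkn1c in differentiating than in undifferentiated cells, 30.9-fold in EOM and 12.6-fold in TA.

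Cells of each muscle varied widely in Cdkn1c. In EOM the lowest cells had none (35 of 408), the median cell had 7.24 UMIs per 10000, the 90th percentile 37.5 and the highest 85.6. In TA 242 of 380 cells had none, the 90th percentile was 2.19 and the highest 10.7, so that the highest TA cell lay below the upper quartile of EOM cells, 21.7. Thinned to 5000 UMIs, 77.9% of EOM cells (73.6 to 81.9%) and 17.4% of TA cells (13.7 to 21.6%) had a UMI, against 15.9% and 3.29% of undifferentiated cells, and without thinning the shares were 91.4% and 36.3%. The level moved in opposite ways along the sarcomere classes: from 1569 to 1371 to 1226 CPM in EOM, and from 39.9 to 67.2 to 86.7 CPM in TA, so that the ratio was 39.4, 20.4 and 14.1.

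Other genes of cell cycle exit were close. Cdkn1a was at 1.09-fold (1.06 to 1.12), Rb1, the retinoblastoma protein, at 1.37-fold, and cyclin D3 (Ccnd3), the cyclin that stays on in differentiating muscle, at 0.894-fold. Of 10 tested, Cdkn1c was higher and cyclin D1 (Ccnd1) was lower in EOM, beside 1.48% and 1.19% of all genes. Ccnd1 was at 21.1 CPM in EOM and 42.5 CPM in TA (0.497-fold). This Ccnd1 call was lost in 8 of 15 alternatives. The 15 include those that changed only the CPM filter, which could not move a ratio. The median of the list was -0.02.

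DNA replication genes lay lower in EOM. Of 30, 12 were tested, 5 of them past the filter in TA alone; all 12 lay below 0 with a median of -0.55, against -0.06 for the same genes in undifferentiated cells, and 2 were past the limit, beside 1.19% of all genes lower. Rrm2, the small subunit of ribonucleotide reductase, was at 112 CPM in EOM and 362 CPM in TA (0.308-fold, 0.287 to 0.331), and the median cell had 0.916 UMIs per 10000 in EOM and 3.24 in TA. The Rrm2 ratio was 0.301, 0.320 and 0.311 over the sarcomere classes, level where Cdkn1c and Actc1 were not, and 0.482 in undifferentiated cells. Mcm3, a subunit of the replicative helicase, was at 17.9 and 38.1 CPM (0.471-fold), but at 0.607-fold in cells matched on Myog, Mymk and Mymx, 0.591-fold with the cycling limit at 3 and 0.502-fold without the cells of highest doublet score. None of the 3 mitotic genes tested was past the limit, beside 2.67% of all genes in either direction, and their median was 0.08. The kept TA cells had 909 CPM of replication genes and the kept EOM cells 495 CPM, and the part of this in other differences was not tested. In cells with no UMI of the 4 cycling genes (136 in EOM, 109 in TA) the median of the replication genes was -0.39.

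**Figure D4:**
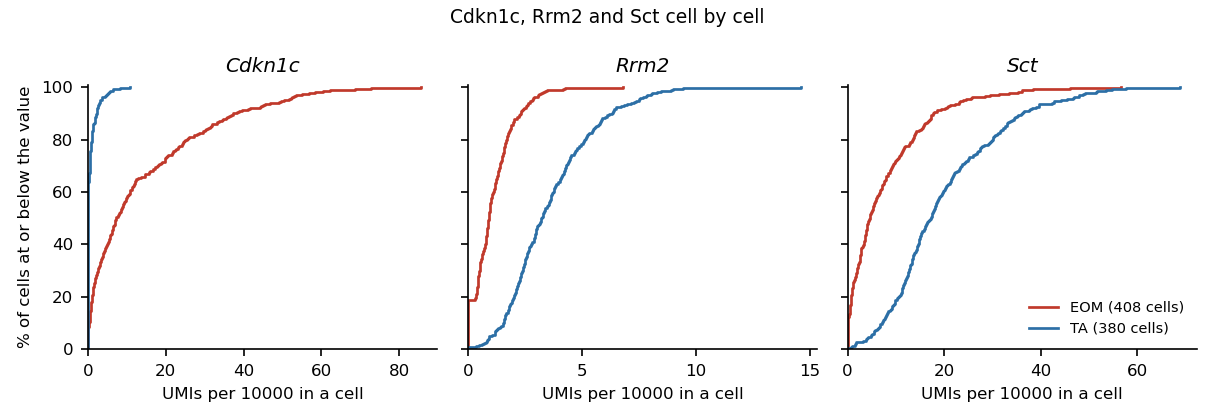
Share of cells (vertical axis, percent) at or below a given number of Cdkn1c, Rrm2 or Sct UMIs per 10000 in a cell (horizontal axis), for 408 EOM cells (red) and 380 TA cells (blue). For Cdkn1c the TA curve ends at 10.7 and the EOM curve at 85.6, and for Rrm2 and Sct the EOM curve lies to the left, with medians of 0.916 against 3.24 and of 4.56 against 17.2.

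Matrix genes were closer to even in differentiating cells than in undifferentiated ones. Of 121 matrix genes in the files 26 could be tested in differentiating cells: 5 were higher and 2 lower in EOM, beside 1.48% and 1.19% of all genes, with a median of 0.12. Of these 26, 6 passed the filter in EOM alone and 2 in TA alone. In undifferentiated cells 49 were tested, 22 were higher and 2 lower, beside 2.64% and 1.41% of all genes, with a median of 0.84, and for the 26 genes tested in differentiating cells the undifferentiated median was 0.67. Summed, matrix genes were at 3369 CPM in EOM and 2953 CPM in TA in differentiating cells, and at 7333 and 4043 CPM in undifferentiated ones.

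By kind, 2 of 7 collagen chains were higher, as were 2 of 10 glycoproteins and 1 of 9 enzymes, beside 1.48% of all genes. Yet 3 of the 7 chains lay above 0 and 4 below, with a median of -0.17. Of the chains, 2 passed the filter in EOM alone and 1 in TA alone. Col1a2, a chain of type I collagen, was at 214 CPM in EOM and 58.0 CPM in TA (3.69-fold, 3.35 to 4.08) and at 752 and 106 CPM in undifferentiated cells (7.08-fold). Its median cell had 1.79 UMIs per 10000 in EOM and 0.301 in TA. Col25a1, a membrane collagen of muscle, was at 23.4 and 11.5 CPM (2.04-fold) but 1.94-fold after thinning, 1.98-fold with each cell given the same weight and 1.99-fold with the limit on Myog, Mymk and Mymx at 20. The proteoglycan biglycan (Bgn) was at 39.8 and 14.1 CPM (2.82-fold) and 6.64-fold in undifferentiated cells, and osteoglycin (Ogn) at 109 and 46.3 CPM (2.36-fold) and 9.48-fold. Ogn was 1.93-fold in cells with no cycling UMI. Plod2, which hydroxylates collagen lysines, was at 89.4 and 39.5 CPM (2.26-fold) and at 2.00-fold in undifferentiated cells, so it was not closer to even. The collagen processing enhancer Pcolce was at 1.41-fold against 4.65-fold in undifferentiated cells, and at 0.873-fold, lower in EOM, after thinning.

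The 2 lower matrix genes encode secreted adhesion proteins. Thrombospondin 1 (Thbs1) was at 40.4 CPM in EOM and 157 CPM in TA (0.257-fold, 0.228 to 0.289), about as in undifferentiated cells (0.306-fold). Osteopontin (Spp1) was at 20.2 and 68.4 CPM (0.295-fold, 0.248 to 0.349) against 0.734-fold. Fibroblast markers stood at 116 and 134 CPM in the kept cells, with Pdgfra at 0 in EOM.

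**Figure D5:**
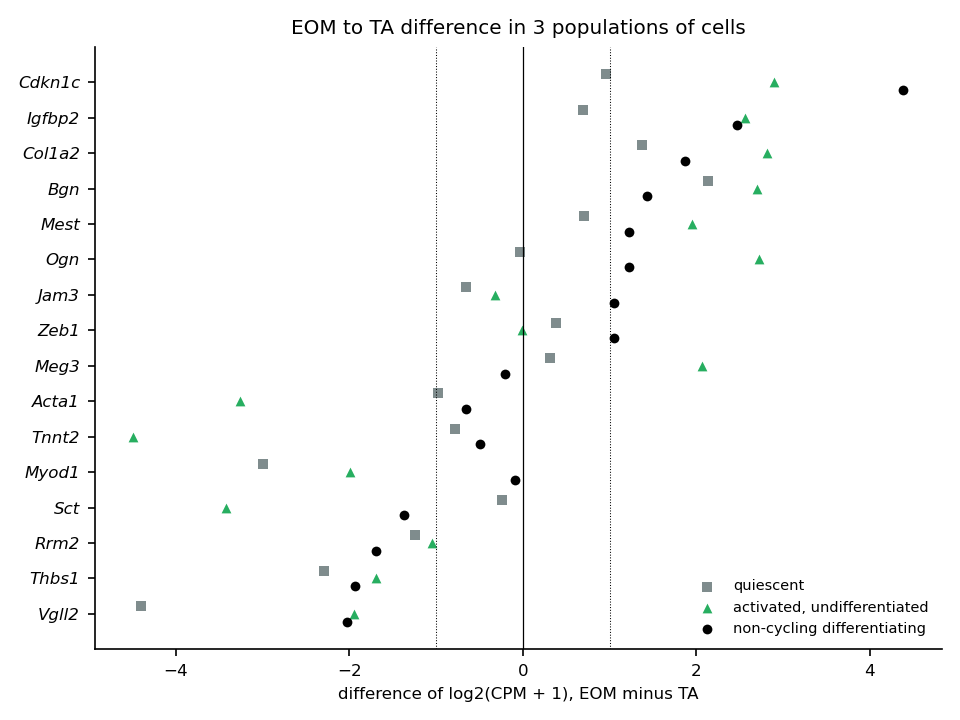
Difference of log2(CPM + 1), EOM minus TA (horizontal axis), for 16 genes in quiescent cells (grey squares), undifferentiated activated cells (green triangles) and non-cycling differentiating cells (black circles), with dotted lines at 2-fold. Cdkn1c lies farthest to the right in differentiating cells, Col1a2, Bgn and Meg3 lie closer to 0 there than in undifferentiated cells, and Rrm2, Thbs1 and Vgll2 lie to the left of the 2-fold line in all 3.

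Of 35 trunk and limb regulators in the files 4 reached the filter, each in TA alone, so that their direction was set by the filter and their values are a description. Hoxa7, Hoxa10 and Lbx1, which mark trunk and limb level, had no UMI in the EOM cells against 34.6, 23.5 and 21.8 CPM in TA. Against a floor of 3 counts over the EOM cells their ratios were at most 0.00989, 0.0146 and 0.0157, and with the fewer UMIs left by thinning at most 0.0423, 0.0931 and 0.0776. Vgll2, given above with the cofactors, was the fourth. Of 5 head regulators tested 2 were higher and 1 was lower, beside 1.48% and 1.19% of all genes. Of the 5, 2 passed the filter in EOM alone, Irx5 among them, and 1, Tbx1, in TA alone. The direction of these was set by the filter, and their values are a description. Among the higher ones, the homeobox factor Irx5 was at 31.5 CPM in EOM and 2.11 CPM in TA (14.9-fold, 9.36 to 25.1, and 32.1-fold after thinning). Tbx1, a regulator of branchial head muscle, went the other way at 0.685 CPM in EOM and 25.4 CPM in TA (0.0270-fold, 0.00980 to 0.0597, and 0.0150-fold after thinning), as it did in undifferentiated cells (0.0162-fold). The list's name covers muscles of the jaw and face as well as of the eye. Of 13 mesenchymal regulators tested, 3 passed the filter in EOM alone. Zeb1, a repressor of epithelial genes, was the 1 past the limit, beside 1.48% of all genes higher. Zeb1 was at 113 and 54.2 CPM (2.09-fold, 1.88 to 2.34) in differentiating cells and 0.993-fold in undifferentiated ones.

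Several of the 12 largest and 12 smallest ratios at 50 CPM or more belonged to genes outside the contractile lists. Igfbp2, a binding protein of insulin-like growth factors, was at 98.5 CPM in EOM and 17.0 CPM in TA (5.78-fold, 4.87 to 6.92), 9.89-fold in cells with no UMI of the cycling genes, and 6.12-fold higher in undifferentiated cells. Fgf21, a hormone of the fibroblast growth factor family, was at 170 and 50.2 CPM (3.39-fold, 3.05 to 3.77) and near absent from undifferentiated cells, at 0.90 and 0.46 CPM. Lpl, the lipoprotein lipase that muscle secretes, was at 108 and 24.0 CPM (4.50-fold, 3.88 to 5.24). Secretin (Sct), known as a gut hormone, lay the other way at 775 CPM in EOM and 2005 CPM in TA (0.387-fold, 0.376 to 0.398). Its median cell had 4.56 UMIs per 10000 in EOM and 17.2 in TA. Sct went up along the sarcomere classes in both muscles, from 363 to 1248 CPM in EOM and from 1186 to 2959 CPM in TA. Its ratio was 0.0898 in undifferentiated cells, so it was nearer to even in differentiating cells.

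Of the other genes among the 12 largest ratios, Csrp2, a LIM-domain protein of smooth muscle, was at 74.98 and 19.7 CPM (3.81-fold), Pgm5, a protein of adherens junctions in muscle, at 59.9 and 15.7 CPM (3.82-fold), and Parm1, Frmd4b, Sept4, Sdccag8 and Spats2l were between 3.28-fold and 4.61-fold higher. Of these, Parm1 was 7.78-fold higher after thinning. Among the 12 smallest were the neuronal beta tubulin Tubb3 at 9.47 and 72.2 CPM (0.131-fold, 0.103 to 0.165), the laminin receptor subunit Itga6 at 0.351-fold, the calcium-binding protein S100a4 at 230 and 510 CPM (0.451-fold), the nicotinamide riboside kinase Nmrk2 at 0.436-fold and the lysophosphatidic acid receptor Lpar1 at 0.464-fold. Tubb3 had no UMI in 360 of 408 EOM cells and in 177 of 380 TA cells.

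Of 9 imprinted genes tested, Cdkn1c and Mest were past the limit, beside 1.48% of all genes higher, with Mest at 176 CPM in EOM and 74.6 CPM in TA (2.36-fold, 2.15 to 2.59). H19 was at 1.74-fold and Peg3 at 1.47-fold, and the list had a median of 0.43. Meg3, a noncoding RNA made from the maternal allele, was at 455 and 523 CPM (0.870-fold) in differentiating cells and at 4.33-fold in undifferentiated ones. Sterol synthesis genes summed to 502 CPM in EOM and 821 CPM in TA: 14 of 15 tested lay below 0 (13 with TMM or median-of-ratios factors), with a median of -0.78, and 5 were past the limit, beside 1.19% of all genes lower. Of the 15, 4 passed the filter in TA alone. Among the 5 past the limit were Msmo1 (20.5 and 57.2 CPM, 0.359-fold), Hsd17b7 (0.309-fold), Idi1 (0.402-fold) and Cyp51 (0.469-fold), enzymes of the pathway to cholesterol. Idi1 was 0.544-fold in cells with no cycling UMI. The same 15 genes had a median of -0.20 in undifferentiated cells and -1.24 in quiescent ones. The lists of stress and early response genes (15 tested, median -0.09), antioxidant genes (15, -0.08) and interferon response genes (5, 0.13) had no member past the limit. Of all genes, 2.67% were past it in either direction.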

How the data were processed

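The authors deposited raw UMI counts per gene and barcode for each library, which the submitters' processing notes say were made with Cell Ranger 3.0.2 on mm10; annotation release and chemistry are not stated. Of 31055 features 30934 matched GENCODE vM21, used for positions. Per library, counts of the kept cells were added up, scaled to CPM, and set as a ratio with an exact 95% Poisson interval (Python 3.11.15, scipy 1.17.1). Genes with 20 CPM or more in either muscle and a ratio of 2 or more in either direction were counted, with no test. The step was checked on simulated data. A pseudocount of 1 CPM was used for log2 values. Quiescent cells had 1000 or more UMIs and at most 10% mt- UMIs. Scrublet (scanpy 1.11.5) called 0 and 1 doublets by its own threshold and so did not work; the 462 EOM and 296 TA barcodes with the highest scores included 1 and 9 kept cells, left out in an alternative. TMM factors came from edgeR 4.0.16. Alternatives changed the filters, limits, scaling and thinning, the pseudocount of the list medians, or matched cells.

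Named genes were the 12 largest and 12 smallest ratios at 50 CPM or more, up to 4 members per list and direction, all tested members of the regulator, fusion, contractile, cell cycle exit and positional lists, the genes of the rule, the markers, and the 8 genes per direction whose ratio differed most from undifferentiated cells; sex-linked, haemoglobin, mt-, ribosomal protein and unnamed genes were left out. Mdk and Sdc3 were named after their values were seen, and some genes that were called are not reported here. The members, the 24 gene lists and the markers were chosen with earlier results of these data known. Genes whose symbol occurs more than once in the files were left out of the lists.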

Additional observations from a re-analysis of the deposited data

How the results depend on the processing

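No paired analysis was possible because each muscle had 1 library. The counts of genes past 2-fold (72 higher, 58 lower) grew with lower filters, to 182 and 213 at 5 CPM and to 2138 and 2111 with no filter. At these 2 settings sarcomere genes numbered 4 and 7 higher and 3 and 7 lower, and matrix genes 11 and 27 higher and 3 and 14 lower. At most 5% mt- UMIs left 8 and 5 cells, with 888 and 988 genes called, 14 and 4 sarcomere genes, 15 and 8 matrix genes, shares kept of 1.32 and 1.13%, and a reversed ratio of Fgf21 (0.732). With no UMI of the cycling genes, 2 sarcomere genes were lower and the shares kept were 2.33 and 2.46%. Thinned to 5000 UMIs, 94 genes were lower and no sarcomere gene was. With the cycling limit at 3, chosen after the data were seen, 786 and 692 cells (13.5 and 15.6%) were kept and 2 sarcomere genes were higher. The median of the myosin list was 0.58, and -0.21 with no filter. The collagen median of -0.17 was 0.24 with no filter and also lay above 0 with at most 5% mt- UMIs, with no cycling UMI, with the cycling limit at 3 and with cells matched on Myog, Mymk and Mymx. With TMM factors 5 sarcomere, 5 excitation-contraction, 6 matrix and 2 mesenchymal genes were higher. The causes were not tested. Depth limits genes near the floor of 3 counts; differences between animals, cultures and libraries were not measured.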

Other observations

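Of the 58 genes lower in differentiating EOM cells, 29 could be tested in quiescent cells. There 12 were called lower and 2 higher in EOM, beside 2.75% and 2.95% of all genes. The 2 higher there were Mdk, the growth factor midkine, and Sdc3, a heparan sulphate proteoglycan of the muscle stem cell surface. In differentiating cells both passed the 20 CPM filter in TA alone, and in quiescent cells Sdc3 passed it in EOM alone. These directions were set by the filter and the values are a description. Mdk was at 12.8 CPM in EOM and 28.2 CPM in TA in differentiating cells (0.454-fold, 0.360 to 0.569), a ratio of 0.543 with no UMI of the cycling genes and of 0.550 with the cycling limit at 3, both short of 2-fold, and at 120 and 58.9 CPM in quiescent cells (2.03-fold). Sdc3 was at 9.59 and 25.04 CPM in differentiating cells (0.383-fold, 0.294 to 0.494, and 0.254-fold after thinning) and at 20.9 and 3.20 CPM in quiescent cells (6.53-fold).

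Not all cells low in the 4 cycling genes were differentiating. Of the 433 EOM and 400 TA cells that met that limit, 25 and 20 had under 10 UMIs of Myog, Mymk and Mymx per 10000 and are outside the cells described.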
